A study of Mus musculus with 22 samples.

Results

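Hspa1b, Hsph1, Hspa5 and Creld2 are 4 of the 8251 genes that the arrays measured with a probe set of a single gene symbol, and they were followed here as heat shock and endoplasmic reticulum (ER) stress chaperones. They were chosen by name with earlier results of these arrays in view, which included their levels over the time course, so their levels are given as a description, and every test comes from a fit over all 8251 genes. Each member was represented by 1 probe set, 100946_at for Hspa1b, 98111_at for Hsph1, 101955_at for Hspa5 and 160119_at for Creld2. No member had another with a single gene symbol, and probe sets with several symbols were not examined. The probe set of every gene was selected on the highest mean log2 value over the 22 arrays. The members' means over all arrays were 6.45 for Hspa1b, 7.07 for Hsph1, 10.1 for Hspa5 and 6.58 for Creld2 on the log2 scale, and levels of different probe sets are not compared.

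The study measured RNA in mouse liver on Affymetrix arrays, with 11 conditions in each of 2 genotypes and 1 array per genotype and condition. One genotype lacked interferon-gamma (IFNg-/-) and the other lacked both interferon-gamma and SOCS1, an inhibitor of interferon-gamma receptor signalling (SOCS1-/-IFNg-/-), so every mouse lacked its own interferon-gamma. Treated mice received 4 µg of recombinant interferon-gamma in 100 µl by intraperitoneal injection, and livers were taken after 0.5, 1, 2, 4, 12, 16, 24 and 48 h. Each genotype had 3 control livers, 1 untreated and 1 each at 4 and 12 h after an injection of 100 µl phosphate-buffered saline (PBS). Strain, age and sex are not in the labels, nor is whether mice were pooled for an array. With no replicate of any condition, arrays of the other genotype stood in for replicates. The error of the fit over conditions therefore also holds any response that differed between the genotypes. The p-values reflect the spread among these 22 arrays alone, which may be technical.

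Chaperones bind unfolded or newly made proteins and keep them from aggregating. In the cytosol their genes are switched on by heat shock factors, which bind repeats of a short DNA unit called the heat shock element. In the ER, where the liver makes most plasma proteins, unfolded protein activates sensors whose transcription factors act through the ER stress element. Hspa1b encodes an inducible cytosolic chaperone of the Hsp70 family, and Hsph1 encodes a larger relative that acts on Hsp70 proteins as a nucleotide exchange factor. Hspa5 encodes BiP, the main Hsp70 chaperone of the ER, and Creld2 encodes a secreted and ER-resident protein that is induced by ER stress.

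The sequences just upstream of the gene starts are shown for the motif matches that differed between the cytosolic and the ER members. The genes were chosen as heat shock and ER stress chaperones, so the matches are not independent of that choice. The sequences come from RefSeq (GRCm38.p6), 5′ to 3′ on the strand of the gene, with motif matches in capitals. The Hspa1b window is chr17:34959239-34959488 (minus strand), the Hsph1 stretch chr5:149636351-149636380 (minus strand), the Hspa5 window chr2:34771840-34772089 (plus strand) and the Creld2 window chr15:88819396-88819645 (plus strand).
Hspa1b: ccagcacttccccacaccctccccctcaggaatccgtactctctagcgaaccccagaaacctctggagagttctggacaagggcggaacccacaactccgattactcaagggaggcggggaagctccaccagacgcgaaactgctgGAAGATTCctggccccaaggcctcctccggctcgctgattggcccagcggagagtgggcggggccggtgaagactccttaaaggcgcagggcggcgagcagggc
Hsph1: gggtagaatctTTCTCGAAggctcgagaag
Hspa5: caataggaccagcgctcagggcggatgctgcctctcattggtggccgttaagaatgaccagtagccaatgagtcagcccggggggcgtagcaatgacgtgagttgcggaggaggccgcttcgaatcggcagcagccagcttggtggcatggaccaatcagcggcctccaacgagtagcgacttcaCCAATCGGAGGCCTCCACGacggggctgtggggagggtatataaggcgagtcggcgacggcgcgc
Creld2: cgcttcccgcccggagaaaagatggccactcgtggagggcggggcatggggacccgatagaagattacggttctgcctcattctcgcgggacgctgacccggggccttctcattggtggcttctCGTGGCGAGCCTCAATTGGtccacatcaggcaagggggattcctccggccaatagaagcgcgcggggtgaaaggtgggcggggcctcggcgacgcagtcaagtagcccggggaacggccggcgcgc

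The ER stress element, searched as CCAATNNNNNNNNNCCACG on both strands of the 250 bases upstream, was found in Hspa5 and Creld2 and in neither cytosolic member. In Hspa5 it read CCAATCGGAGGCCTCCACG, from 65 to 47 bases before the start. In Creld2 it lay on the other strand, reads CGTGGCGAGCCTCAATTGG on the strand shown, and ran from 126 to 108 bases before the start. Of 32851 windows of the same length, 37 (0.113%) held this motif. Among the 17 measured ER chaperones and folding enzymes with a window, 8 held it, namely Hspa5, Creld2, Hsp90b1, Calr, Canx, Pdia6, Dnajc3 and Ero1b. None of the 15 cytosolic heat shock genes with a window did.

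A heat shock element of 3 alternating units, searched as GAANNTTCNNGAA or TTCNNGAANNTTC, was in none of the 4 members' windows and in 0.466% of all windows. A shorter pair of units, GAANNTTC or TTCNNGAA, was in Hspa1b from 104 to 97 bases before the start (GAAGATTC) and in Hsph1 (TTCTCGAA), and in neither ER member. This pair is common, with 12.8% of all windows holding it, and it was searched after the longer form had given no match. It overlaps the longer form by construction. Of the 15 cytosolic heat shock genes, 7 held the pair, and of the 17 ER genes 0 did. The Hsph1 match lay 33 to 26 bases before one annotated start and 54 to 47 before another, and only 30 bases are shown because the second window reaches into the gene. A second ER stress motif, ATTGGNCCACG (0.0304% of windows), was in none of the members' windows. The gamma-activated site, searched as TTCNNNGAA (7.02% of windows), was in none of them either. None of the 15 cytosolic and 17 ER genes with a window held it. A match is a description of letters and not of a bound site.

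As a check of the labels, Socs1 reached 9.21 at 2 h in IFNg-/- livers, where its lowest value was 6.68, and stayed between 6.57 and 7.02 on all SOCS1-/-IFNg-/- arrays. Ifng lay between 2.18 and 2.61 on all 22 arrays. Hepatocyte markers were high throughout, with a mean of 11.8 to 12.1 over 5 genes, as labelled for liver. The 4 interferon-gamma markers measured, Irf1, Cxcl9, Gbp2 and Igtp, all varied over the conditions. Cxcl9 was 7.76 and 8.31 in the PBS 12 h livers but 4.16 to 4.46 in the other controls. Gbp2 was 6.44 and 7.60 against 4.27 to 4.66, and Igtp 6.60 and 7.94 against 5.72 to 6.24. Irf1 overlapped, with 6.92 and 7.57 against 6.47 to 7.38. Interferon-gamma targets were thus raised in the 12 h vehicle livers. The 12 h differences from PBS use these livers as their baseline, and several other leading results are also given without them. The 4 h SOCS1-/-IFNg-/- array stood apart from the rest, with a median correlation of 0.972 with the other arrays, against 0.984 to 0.993 for the others.

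**Figure D1:**
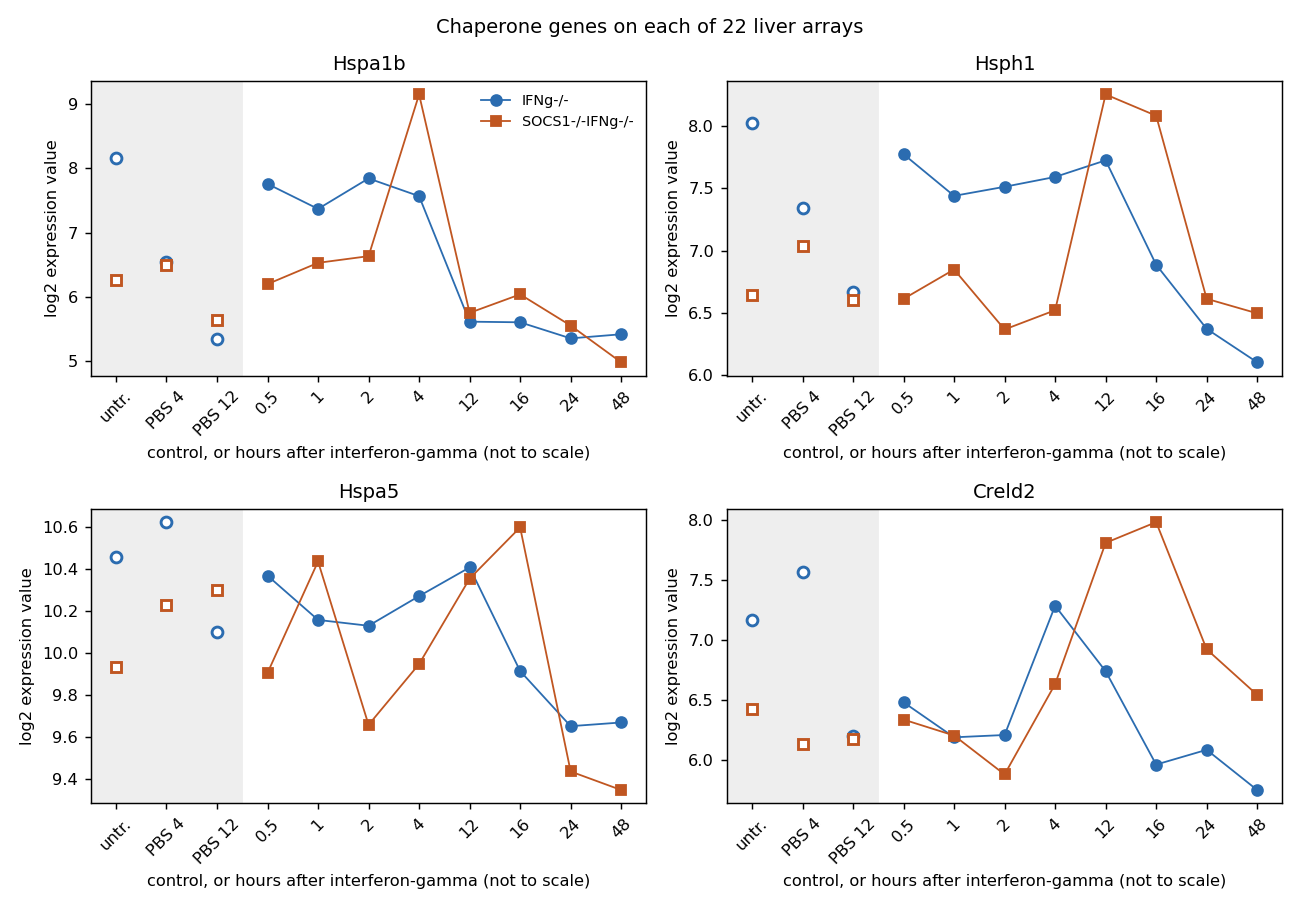
Log2 expression value of each member on each of the 22 arrays, with conditions on the x axis, circles for IFNg-/- and squares for SOCS1-/-IFNg-/-, and open symbols on grey for the controls. Hspa1b peaks at 9.15 on the 4 h SOCS1-/-IFNg-/- array, Hsph1 and Creld2 are highest in that genotype at 12 and 16 h, and the untreated IFNg-/- array is high for Hspa1b and Hsph1.

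The control livers already differed widely. Over the 6 control arrays Hspa1b spanned 2.81 log2 units, Hsph1 1.43, Hspa5 0.69 and Creld2 1.43, against a median of 0.28 over all genes. A smaller control range was found for 99.9% of genes in the case of Hspa1b, 99.1% for Hsph1, 95.2% for Hspa5 and 99.1% for Creld2. Much of this came from the IFNg-/- genotype, as the values below show. For this reason the members are described array by array before any contrast.

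Hspa1b in IFNg-/- controls was 8.16 untreated, 6.55 at 4 h after PBS and 5.35 at 12 h after PBS. After interferon-gamma these livers gave 7.76 (0.5 h), 7.37 (1 h), 7.84 (2 h) and 7.57 (4 h), then 5.62 (12 h), 5.61 (16 h), 5.36 (24 h) and 5.42 (48 h). All 4 early values lay inside the range of the genotype's own controls, between the PBS 4 h and the untreated liver. All 4 late values lay within 0.27 of the PBS 12 h liver, so the step between 4 and 12 h was present in the vehicle livers as well.

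In SOCS1-/-IFNg-/- controls Hspa1b was 6.26 untreated, 6.49 at 4 h after PBS and 5.64 at 12 h after PBS. After interferon-gamma it was 6.20 (0.5 h), 6.53 (1 h), 6.64 (2 h) and 9.15 (4 h), then 5.75 (12 h), 6.04 (16 h), 5.56 (24 h) and 4.99 (48 h). The 4 h liver was the highest of the 22 arrays and stood 2.66 above the PBS 4 h liver of its genotype, against 1.02 in the IFNg-/- pair at the same hour. The 4 h and 48 h SOCS1-/-IFNg-/- livers were the only ones of 16 treated livers outside the range of the 6 controls.

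Hspa1b was the one member whose level varied over the 11 conditions in limma's moderated F test (adjusted p = 0.0385), a test that 4.39% of genes passed. At an unadjusted p under 0.05 there were 2 members, Hspa1b and Hspa5, and 19.1% of all genes. The adjusted p was 0.126 for Hspa5, 0.415 for Hsph1 and 0.721 for Creld2 (limma). The call for Hspa1b did not hold with a trended robust prior (adjusted p = 0.165), without a genotype term (0.0536) or with median centring (0.0602), and it was also lost, with adjusted p up to 0.0844, on leaving out the PBS 4 h, PBS 12 h, 1, 2, 12, 24 or 48 h array of either genotype. Without a 16 h array or the 16 h pair, Hspa5 passed the F test as well (adjusted p 0.0171 to 0.0308).

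At 4 h Hspa1b rose by 1.95 ± 0.48 (SE) on the log2 scale, or 3.86-fold, over the 6 control arrays (limma, adjusted p = 0.0286; 2 arrays against 6). It was the one member called in that comparison, in which 5.03% of genes were called. Against the time-matched PBS livers the difference was 1.84 ± 0.59 (adjusted p = 0.168), and 0 members were called by limma, 1 at an unadjusted p under 0.05, against 1.36% and 12.1% of all genes. Both genotypes were higher at 4 h than their PBS liver, but the size rests on the SOCS1-/-IFNg-/- array. Without it the 4 h difference from controls was 0.91 (adjusted p = 0.516), and without the PBS 12 h pair it was 1.49 (adjusted p = 0.151). The call was also lost without the PBS 12 h array of IFNg-/- (adjusted p = 0.0600), or the untreated (0.0637) or PBS 4 h (0.0512) array of SOCS1-/-IFNg-/-, and with array weights (0.290) or a trended robust prior (0.0938).

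Hspa1a encodes a near-identical protein and its transcript could share signal with the Hspa1b probe set, so the assignment between the copies is uncertain. Its own probe set spanned a narrower range and had the same 2 highest arrays in the same order, but not the same lowest array. It was 6.03 in the untreated IFNg-/- liver and 6.13 in the 4 h SOCS1-/-IFNg-/- liver, and between 4.92 and 5.62 on all other arrays. In the 48 h SOCS1-/-IFNg-/- liver, the lowest for Hspa1b (4.99), Hspa1a was 5.20. The correlation with Hspa1b over the 22 arrays, after subtracting each genotype's mean, was r = 0.935, a description over arrays that share their RNA. Next in likeness to Hspa1b were Hspa8 (r = 0.878), the constitutive cytosolic Hsp70, Pfkfb3 (0.856), a regulator of glycolysis, Mbd1 (0.823) and Cr2 (0.769).

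Hsph1 in IFNg-/- controls was 8.03 untreated, 7.34 at 4 h after PBS and 6.66 at 12 h after PBS. With interferon-gamma the values were 7.78 (0.5 h), 7.44 (1 h), 7.51 (2 h), 7.59 (4 h), 7.73 (12 h), 6.89 (16 h), 6.37 (24 h) and 6.10 (48 h). The early values again lay inside the genotype's control range, and the 24 and 48 h livers lay below it. The 12 h liver stood 1.06 above its PBS 12 h liver.

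In SOCS1-/-IFNg-/- controls Hsph1 was 6.64 untreated, 7.03 at 4 h after PBS and 6.60 at 12 h after PBS. After interferon-gamma it was 6.61 (0.5 h), 6.85 (1 h), 6.36 (2 h) and 6.52 (4 h), then 8.26 (12 h), 8.09 (16 h), 6.61 (24 h) and 6.49 (48 h). The 12 and 16 h livers were the highest and second highest of all 22 arrays, and the 12 h liver stood 1.65 above its PBS 12 h liver. Hsph1 did not share the 4 h peak of Hspa1b in this genotype.

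Over both genotypes Hsph1 was 1.36 ± 0.49 (SE) higher at 12 h than in the PBS 12 h livers, 2.56-fold (limma, adjusted p = 0.510). No member was called by limma in that contrast, 1 (Hsph1) at an unadjusted p under 0.05, against 0.109% and 7.07% of all genes. Against the 6 controls the 12 h difference was 0.94 ± 0.40 (adjusted p = 0.325), again with 0 members called and 1 under 0.05, against 1.42% and 13.3% of genes. The genes most like Hsph1 over the arrays were Chordc1 (r = 0.893), Stip1 (0.844) and Dnaja1 (0.826), which are co-chaperones of the cytosolic machinery, and the ER proteins Manf (0.812) and Dnajb11 (0.801).

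Hspa5 in IFNg-/- controls was 10.46 untreated, 10.62 at 4 h after PBS and 10.10 at 12 h after PBS. With interferon-gamma the values were 10.37 (0.5 h), 10.16 (1 h), 10.13 (2 h), 10.27 (4 h), 10.41 (12 h), 9.92 (16 h), 9.65 (24 h) and 9.67 (48 h). The 3 latest livers were below all 3 controls of the genotype. Of the 4 members Hspa5 varied least, with an SD of 0.36 over the 22 arrays against 1.10 for Hspa1b, 0.64 for Hsph1 and 0.63 for Creld2.

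In SOCS1-/-IFNg-/- controls Hspa5 was 9.93 untreated, 10.23 at 4 h after PBS and 10.30 at 12 h after PBS. After interferon-gamma it was 9.91 (0.5 h), 10.44 (1 h), 9.66 (2 h), 9.95 (4 h), 10.36 (12 h), 10.60 (16 h), 9.44 (24 h) and 9.35 (48 h). The 1, 12 and 16 h livers stood above the genotype's 3 controls, and the 24 and 48 h livers were the lowest of all 22 arrays.

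The low 24 and 48 h levels were seen in both genotypes. Hspa5 was 0.73 lower than the 6 controls at 24 h (log2 difference -0.73 ± 0.19, SE, adjusted p = 0.169) and 0.76 lower at 48 h (-0.76 ± 0.19, adjusted p = 0.318). No member was called by limma at either time. At an unadjusted p under 0.05 there was 1 member at 24 h (Hspa5) and there were 2 at 48 h (Hspa1b and Hspa5), while limma called 0.17% of genes for 24 h and 0.0121% for 48 h, with 9.88% and 6.69% under an unadjusted 0.05. Without the 16 h array of either genotype or the 16 h pair, whose Hspa5 values differed by 0.68, the 24 h difference of -0.73 had an adjusted p of 0.0499. Without the PBS 12 h pair the differences were -0.77 at 24 h and -0.80 at 48 h. Vehicle livers at 24 and 48 h were not part of the design, so interferon-gamma and time since injection cannot be told apart there. The 48 h livers also had the highest 3′ minus 5′ differences of the Actb control probe sets of the 22 arrays (1.33 in IFNg-/- and 1.56 in SOCS1-/-IFNg-/-) and the highest means of the 6 Kupffer cell and macrophage markers (6.93 in both). At 24 h the Actb differences were 1.13 and 0.47 and the marker means 6.74 and 6.65. The part of these in the Hspa5 levels was not tested. The genes most like Hspa5 were Manf (r = 0.878), an ER stress-induced secreted protein, Dnaja1 (0.875), Copb1 (0.821) and Tmed3 (0.810), which serve transport between ER and Golgi, and Jmjd6 (0.783).

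Creld2 in IFNg-/- controls was 7.17 untreated, 7.57 at 4 h after PBS and 6.20 at 12 h after PBS. With interferon-gamma the values were 6.48 (0.5 h), 6.19 (1 h), 6.21 (2 h), 7.28 (4 h), 6.74 (12 h), 5.96 (16 h), 6.08 (24 h) and 5.75 (48 h). The high 4 h value was matched by the PBS 4 h liver, and the 3 latest livers were below all 3 controls. Treated and control livers of this genotype overlapped at 0.5, 2, 4 and 12 h.

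In SOCS1-/-IFNg-/- controls Creld2 was 6.43 untreated, 6.13 at 4 h after PBS and 6.17 at 12 h after PBS. After interferon-gamma it was 6.34 (0.5 h), 6.20 (1 h), 5.88 (2 h) and 6.63 (4 h), then 7.81 (12 h), 7.98 (16 h), 6.92 (24 h) and 6.54 (48 h). All 4 late livers were above all 3 controls of the genotype, though the 48 h liver (6.54) was close to the untreated one (6.43). The share of all genes with this pattern was not counted. The livers at 12 and 16 h were the highest of the 22 arrays. The 12 h liver stood 1.64 above its PBS 12 h liver, against 0.54 in IFNg-/-.

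Over both genotypes the 12 h difference of Creld2 from PBS was 1.09 ± 0.57 (SE, limma adjusted p = 0.756). Most like Creld2 were Psat1 (r = 0.864), an enzyme of serine synthesis, Hsp90b1 (0.834), the Hsp90 chaperone of the ER, Fam98a (0.807), Gss (0.803), an enzyme of glutathione synthesis, and Prtn3 (0.790). Among the members, the correlation over the 22 arrays was r = 0.767 between Hsph1 and Creld2, 0.741 between Hsph1 and Hspa5 and 0.546 between Hspa5 and Creld2 (Spearman 0.680, 0.744 and 0.435). Between Hspa1b and Hsph1, Hspa5 and Creld2, r was 0.310, 0.327 and 0.141 (Spearman 0.482, 0.369 and 0.195). Without the 2 arrays farthest from the median of Hspa1b, the 4 h SOCS1-/-IFNg-/- and the untreated IFNg-/- liver, these were 0.426, 0.40 and 0.086. Without the 2 arrays farthest from the median of Hsph1, the 12 and 16 h SOCS1-/-IFNg-/- livers, r between Hsph1 and Creld2 was 0.599. These are descriptions over arrays that share condition and genotype.

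**Figure D2:**
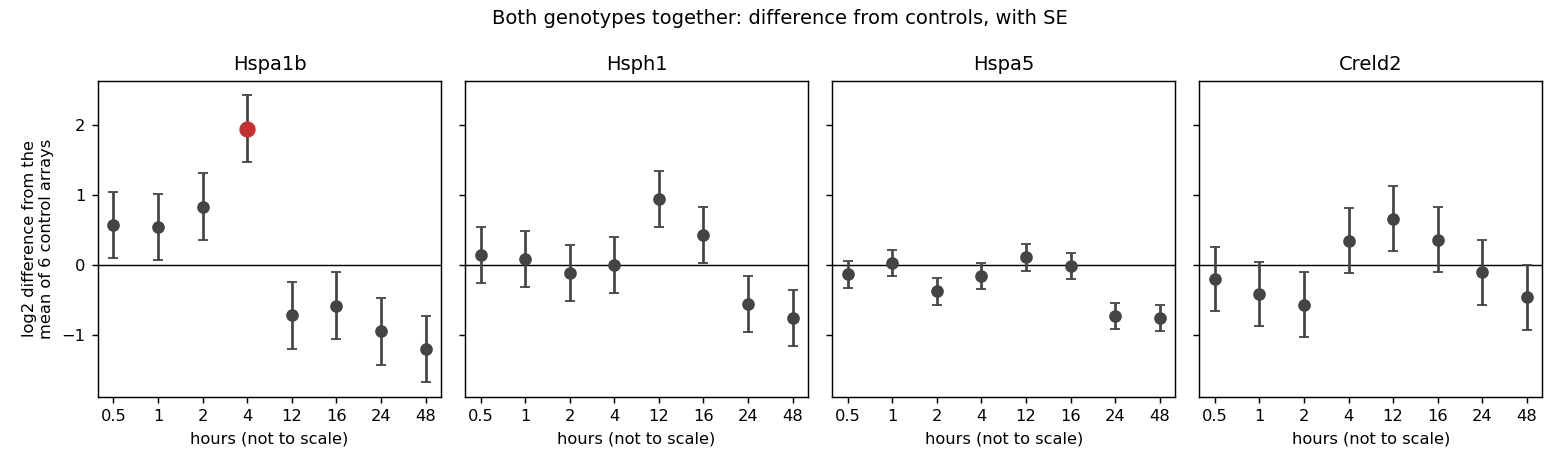
Log2 difference of the 2 arrays at each time from the mean of the 6 control arrays, with the SE of the fit, for each member; the x axis gives hours after interferon-gamma. The red point is the one difference past the threshold, Hspa1b at 4 h (1.95), and Hspa5 lies at -0.73 and -0.76 at 24 and 48 h.

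At the remaining times no member was called against the 6 controls by limma, and none had an unadjusted p under 0.05. The background was 0% of genes called at 0.5 h (5.79% under an unadjusted 0.05), 0.158% at 1 h (4.48%), 1.66% at 2 h (11.1%) and 0.448% at 16 h (8.45%). The largest of these member differences was 0.83 ± 0.48 for Hspa1b at 2 h. A value at 16 h over both genotypes hides opposite positions of the genotypes, as described next for Creld2 and Hspa5.

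Injection and hour of sampling were compared within the controls. Hspa1b was 1.20 ± 0.51 (SE) lower in the 4 PBS livers than in the 2 untreated livers on the log2 scale (-1.20, limma adjusted p = 0.369), and without the untreated IFNg-/- array the difference was -0.32. No member was called by limma, 1 (Hspa1b) had an unadjusted p under 0.05, and 0.0242% of genes were called and 11.7% lay under 0.05. Between PBS 12 h and PBS 4 h no member was called by limma, none was under an unadjusted 0.05, and 0.0242% of genes were called and 3.77% lay under 0.05. The member differences there were -1.03 ± 0.59 for Hspa1b, -0.55 ± 0.49 for Hsph1, -0.22 ± 0.23 for Hspa5 and -0.67 ± 0.57 for Creld2, which was 0.19 without the IFNg-/- PBS 4 h array. The untreated livers also differed in a measure of RNA quality, with a 3′ minus 5′ difference of the Actb control probe sets of 1.32 and 1.31 against 0.66 to 0.83 in the PBS livers. Its part in the result was not tested.

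Among 12 measured clock genes, Nr1d1 and Nr1d2 varied over the conditions of treatment and time (F test, which 4.39% of all genes passed). Between PBS 12 h and PBS 4 h none of the 12 was called by limma, and 4 had an unadjusted p under 0.05 (1 higher and 3 lower at 12 h), against 3.77% of all genes. Nr1d1, a repressor in the circadian clock, was 7.58 and 7.57 at 4 h after PBS and 6.0 and 5.70 at 12 h after PBS. At 16 h it was 7.30 in the IFNg-/- liver and 5.96 in the SOCS1-/-IFNg-/- liver, the late pair in which Creld2, Hsph1 and Hspa5 differed most between genotypes. Its part in that difference was not tested.

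**Figure D3:**
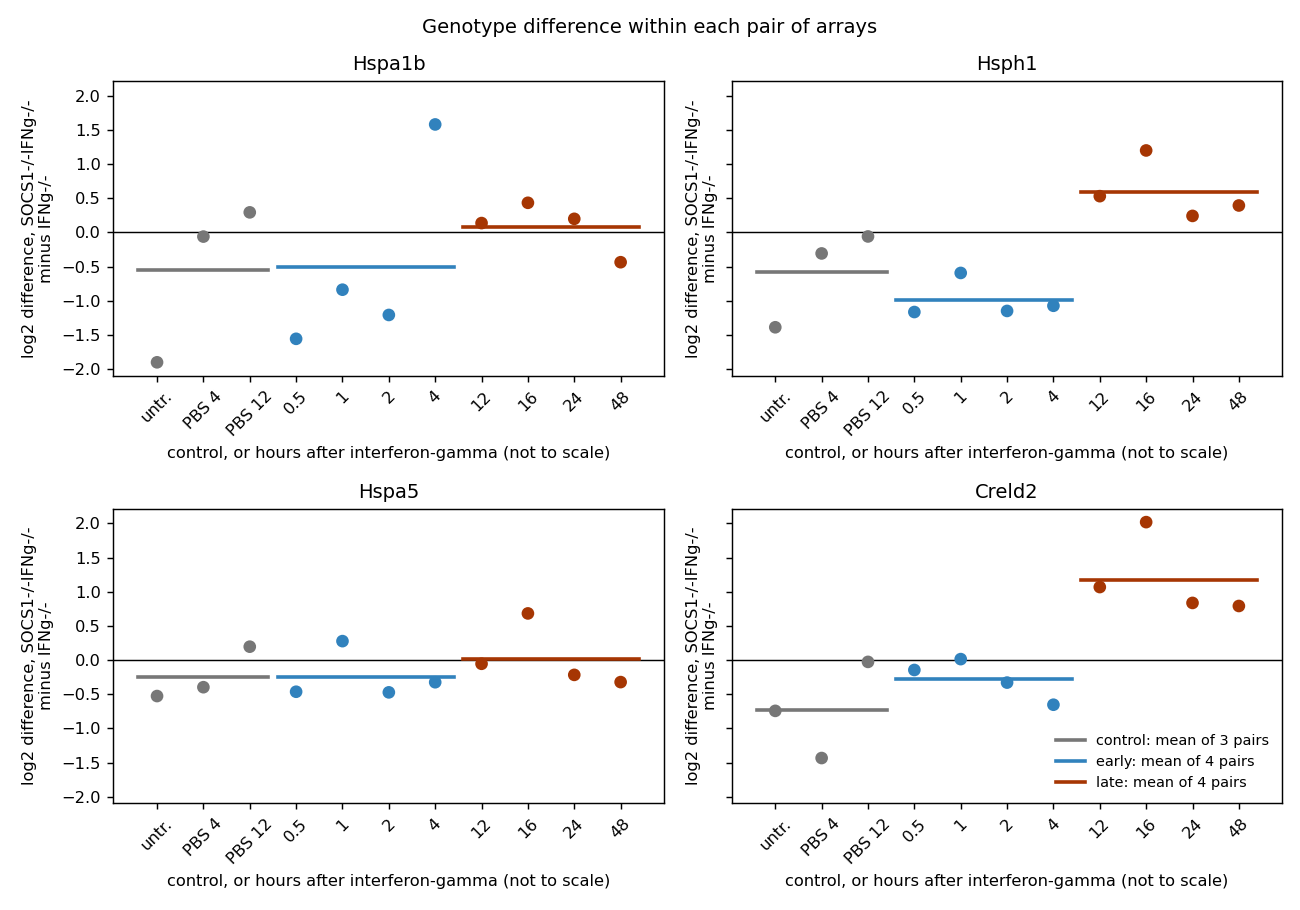
Log2 difference between genotypes (SOCS1-/-IFNg-/- minus IFNg-/-) in each of the 11 pairs of arrays, with bars for the mean of the 3 control, 4 early and 4 late pairs. For Creld2 and Hsph1 all 4 late pairs lie above 0 and all 3 control pairs below 0.

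Loss of SOCS1 was compared within the 11 pairs that share treatment and hour. Over all pairs the genotype difference, SOCS1-/-IFNg-/- minus IFNg-/-, was -0.31 ± 0.25 (SE) for Hspa1b, -0.31 ± 0.21 for Hsph1, -0.15 ± 0.10 for Hspa5 and 0.13 ± 0.24 for Creld2. None was called by limma and none had an unadjusted p under 0.05, while 0.206% of genes were called and 8.06% lay under 0.05. The SOCS1-/-IFNg-/- array was the higher in 5 of 11 pairs for Hspa1b, 4 for Hsph1, 3 for Hspa5 and 5 for Creld2.

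For Creld2 the difference was -0.74 untreated, -1.43 at 4 h after PBS and -0.03 at 12 h after PBS. In the early pairs it was -0.14 (0.5 h), 0.01 (1 h), -0.33 (2 h) and -0.65 (4 h). In the late pairs it was 1.07 (12 h), 2.02 (16 h), 0.84 (24 h) and 0.79 (48 h). All late pairs lay above all control pairs, as they did for 6.19% of the 8251 genes. The late pairs also lay above the early pairs, for which the share over all genes was not counted.

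For Hsph1 the difference was -1.39 untreated, -0.31 at 4 h after PBS and -0.06 at 12 h after PBS. In the early pairs it was -1.16 (0.5 h), -0.59 (1 h), -1.15 (2 h) and -1.07 (4 h). In the late pairs it was 0.53 (12 h), 1.20 (16 h), 0.24 (24 h) and 0.39 (48 h). Hsph1 was thus lower without SOCS1 in all 7 control and early pairs and higher in all 4 late pairs. The share of all genes with such a pattern was not counted.

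Hspa1b and Hspa5 showed no such separation. The late differences of Hspa1b ran from -0.44 to 0.43, inside the range of its control pairs (-1.90 to 0.29) but for the 16 h pair. Its early pairs were -1.56 (0.5 h), -0.84 (1 h), -1.21 (2 h) and 1.58 (4 h). The late differences of Hspa5 were -0.05 (12 h), 0.68 (16 h), -0.22 (24 h) and -0.32 (48 h), with only the 16 h pair above the control pairs (-0.53 to 0.20).

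The late genotype difference exceeded that in the controls by 1.91 ± 0.32 (SE) for Creld2, or 3.77-fold (limma on the within-pair differences, adjusted p = 0.0786). For Hsph1 the excess was 1.18 ± 0.29 or 2.26-fold (adjusted p = 0.186), for Hspa1b 0.64 ± 0.65 (adjusted p = 0.737) and for Hspa5 0.26 ± 0.25 (adjusted p = 0.717). No member was called by limma, and 0% of genes were; 2 members, Creld2 and Hsph1, and 11.4% of genes had an unadjusted p under 0.05. The smallest adjusted p of all 8251 genes was 0.0786, the value of Creld2. The adjustment can give several genes the same value, so this does not rank Creld2 first. With array weights the Creld2 excess was 1.52 and passed the threshold (adjusted p = 0.0372). Leaving out 1 pair at a time gave 1.56 to 2.27 for Creld2 (adjusted p 0.0592 to 0.450) and 0.77 to 1.44 for Hsph1 (adjusted p 0.132 to 0.704). Without the untreated pair, the excess for Hsph1 was 0.77 (adjusted p = 0.247), and without the PBS 12 h pair it was 1.44 for Hsph1 and 2.27 for Creld2.

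All late pairs lay above all control pairs for 2 of the 4 members and for 6.19% of the 8251 genes. The early excess over controls was 0.46 ± 0.32 for Creld2, -0.41 ± 0.29 for Hsph1, 0.05 ± 0.65 for Hspa1b and -0.00 ± 0.25 for Hspa5. None was called by limma or had an unadjusted p under 0.05, and 0% of genes were called and 3.48% lay under 0.05.

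The 12 and 16 h SOCS1-/-IFNg-/- livers, on which the late values lean, also differed in markers of other cells. Over 6 markers of Kupffer cells and macrophages their mean log2 value was 6.03 and 5.98, against 6.39 to 6.93 on the other 20 arrays. Of the 6, 3 (Clec4f, Cd5l and Csf1r) were below all other 20 arrays in both livers. Marco was below them at 12 h only. Adgre1 and Cd68 lay inside their range in both livers, with Cd68 at 6.53 and 6.45 against 6.15 to 6.95. The share of all genes below the other arrays in both livers was not counted. Cd5l, a macrophage gene of the liver, was 5.69 and 5.29 against 6.46 to 7.77. The mean of 6 neutrophil markers was 5.83 at 12 h and 5.50 at 16 h against 5.16 to 5.55, so only the 12 h liver lay outside. In that liver S100a8, S100a9, Ngp and Ltf were above all other 20 arrays, and Camp and Elane were not. None of the 6 was above them at 16 h. In bulk liver fewer cells of a type and less RNA per cell cannot be told apart. The 12 h liver had the highest 3′ minus 5′ difference of the Gapdh control probe sets, 1.16 against 0.37 to 0.85 elsewhere. Hepatocyte markers in both (12.0 and 11.9) lay inside the range of the other arrays. The Kupffer mean in SOCS1-/-IFNg-/- was 6.65 at 24 h and 6.93 at 48 h. The Creld2 difference between genotypes was 1.07, 2.02, 0.84 and 0.79 at 12, 16, 24 and 48 h. The part of cell markers and RNA quality in the late values was not tested.

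**Figure D4:**
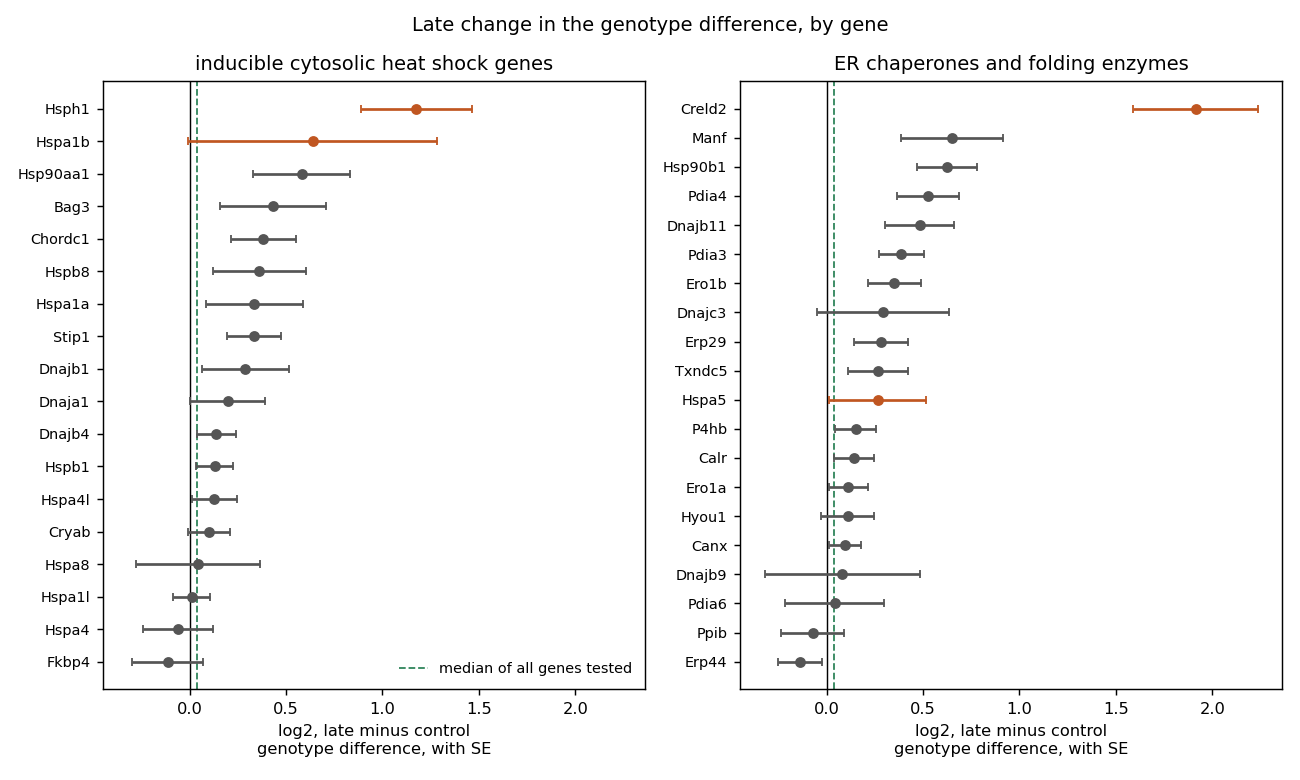
Late minus control genotype difference on the log2 scale, with SE, for 18 cytosolic heat shock genes and 20 ER chaperones and folding enzymes; members are in orange and the dashed line is the median of all genes tested (0.04). In both panels most points lie to the right of 0, led by Hsph1 and Creld2.

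Other genes of each pathway were taken from lists that were, like the members, drawn up with earlier results of these arrays known. In the late minus control genotype difference, 18 of 20 ER chaperones and folding enzymes were above 0, with a median of 0.27, against 59.9% of all genes and a median of 0.04. None was called by limma, and 7 had an unadjusted p under 0.05, all of them higher, against 11.4% of all genes. Creld2 was the largest of the 20. Manf followed at 0.65 ± 0.27, then Hsp90b1 at 0.63 ± 0.16, Pdia4 at 0.53 ± 0.16 and Dnajb11 at 0.48 ± 0.18, while Hspa5 (0.26) was below 10 of the other genes. Pdia4 is a disulfide isomerase and Dnajb11 a co-chaperone of BiP. All late pairs lay above all control pairs for 6 of the 20, against 6.19% of all genes. With array weights Hsp90b1 passed the threshold (0.64, adjusted p = 0.0389).

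Hsp90b1 gives an example array by array. Its genotype difference was -0.12 untreated, -0.23 at 4 h after PBS and -0.28 at 12 h after PBS, then -0.03 (0.5 h), 0.17 (1 h), 0.07 (2 h) and -0.36 (4 h), and 0.18 (12 h), 0.83 (16 h), 0.43 (24 h) and 0.23 (48 h). The late pairs lay above the control pairs, but the 1 h pair was just below the 12 h pair. Hsp90b1 was chosen after its values were seen.

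Of 18 cytosolic heat shock genes, 16 were above 0 in the same late contrast, with a median of 0.24. All late pairs lay above all control pairs for 1 of the 18, Hsph1, or 5.56% against 6.19% of all genes. None was called by limma, and 4 had an unadjusted p under 0.05, all higher, against 11.4% of all genes. These were Hsph1, Hsp90aa1 (0.58 ± 0.25), the inducible cytosolic Hsp90, Chordc1 (0.38 ± 0.17) and Stip1 (0.34 ± 0.14). Hsp90aa1 was 9.32 at 12 h and 9.28 at 16 h in SOCS1-/-IFNg-/- livers, against 9.17 and 8.01 in IFNg-/- livers and 7.78 to 8.47 on the 6 controls.

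The other protein-folding lists were mixed, and no test between lists was made. Of 8 mitochondrial chaperones and proteases none was above 0 (median -0.14), and of 11 chaperonin and prefoldin subunits 2 were (median -0.07). Of 8 genes of ER-associated degradation 4 were above 0 (median -0.02), and of 5 sensors and factors of the unfolded protein response 3 were (median 0.04). Of 8 genes of the ATF4 branch 6 were above 0 (median 0.11), with Ddit3, the stress-induced transcription factor CHOP, at 0.48 ± 0.14. Of 3 measured heat shock factors and their regulator, 2 were above 0 (median 0.17). No gene of these lists was called by limma.

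Against PBS at 4 h, the 18 cytosolic heat shock genes had a median difference of 0.05 (all genes -0.02), and 1 was called higher, where 1.36% of all genes were called. Hspb8, a small heat shock protein of the autophagy pathway, rose by 1.05 ± 0.24 (adjusted p = 0.0454), and against the 6 controls by 1.19 ± 0.19 (adjusted p = 0.00248). Its 4 h values were 9.51 in IFNg-/- and 10.65 in SOCS1-/-IFNg-/-, against 8.66 to 9.08 on the 6 controls. The call against PBS was lost in 29 of 38 alternatives, among them the mean of its probe sets (0.55, adjusted p = 0.160) and leaving out the 4 h SOCS1-/-IFNg-/- array (0.53, adjusted p = 0.391). Without that array the difference from the 6 controls was 0.67 (adjusted p = 0.113). Bag3, its co-chaperone partner, rose by 0.81 ± 0.22 against the controls (adjusted p = 0.0432), with 7.48 at 4 h in the SOCS1-/-IFNg-/- liver and 6.64 in the IFNg-/- liver. That call was lost in 23 of 39 alternatives and stood at 0.42 (adjusted p = 0.555) without the 4 h SOCS1-/-IFNg-/- array. At 4 h against the controls, 3 of the 18 were called, Hspa1b, Hspb8 and Bag3, against 5.03% of all genes. At 2 h, where 1.66% of all genes were called, Hspb8 was the one call (1.08 ± 0.19, adjusted p = 0.00927), a call that was lost without the 2 h array of IFNg-/- (1.01, adjusted p = 0.217) or of SOCS1-/-IFNg-/- (1.15, adjusted p = 0.0946).

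Against PBS at 12 h, 15 of 18 cytosolic heat shock genes were above 0 with a median of 0.20, and 16 of 20 ER genes with a median of 0.17, against 46.7% of all genes and a median of -0.01. Of the cytosolic list 0 were called by limma and 6 had an unadjusted p under 0.05, and of the ER list 1 was called and 5 were under 0.05, where 0.109% of all genes were called and 7.07% lay under 0.05. The call was Pdia3, a disulfide isomerase that also belongs to the peptide-loading complex of antigen presentation, which rose by 0.88 ± 0.14 (adjusted p = 0.0169). It was 8.49 and 8.87 at 12 h, against 7.69 to 8.09 on the 6 controls. The call was lost without a genotype term (adjusted p = 0.123), and without the PBS 12 h (0.70, adjusted p = 0.353) or the 12 h (0.74, adjusted p = 0.536) SOCS1-/-IFNg-/- array. Against the 6 controls, Pdia3 rose by 0.83 ± 0.11 (adjusted p = 0.00111) and Stip1, which links Hsp70 to Hsp90, by 0.69 ± 0.15 (adjusted p = 0.0354), and both calls were lost without the 12 h SOCS1-/-IFNg-/- array (0.69, adjusted p = 0.0831, and 0.61, adjusted p = 0.557). The Stip1 call was lost in 9 of 38 alternatives, all of which left out control or 12 h arrays.

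Herpud1, an ER stress-induced protein of ER-associated degradation, varied over the conditions (F test, adjusted p = 0.0214). The call was lost without a genotype term (adjusted p = 0.0875), and with adjusted p of 0.0509 to 0.0516 without the 0.5 h pair, the 24 h pair, or the 0.5, 24 or 48 h SOCS1-/-IFNg-/- array. Its controls spanned 8.11 to 9.82, with 9.82 and 8.96 at 4 h after PBS and 8.11 and 8.26 at 12 h after PBS, so it was high at 4 h and low at 12 h in vehicle livers of both genotypes. At 4 h after interferon-gamma it was 9.18 in IFNg-/- and 8.52 in SOCS1-/-IFNg-/-, below the PBS 4 h liver in both. Its late values ran from 8.04 to 8.67. Against PBS at 4 h, the 8 genes of ER-associated degradation had a median difference of -0.26. None was called by limma, and 4 had an unadjusted p under 0.05, all lower, against 12.1% of all genes. Xbp1, the transcription factor whose transcript is spliced in ER stress, was 9.37 and 9.51 at 4 h after PBS and 8.63 and 8.95 at 12 h after PBS, and its adjusted p was 0.0563. The arrays do not separate its spliced from its unspliced form here. Cirbp, a cold-inducible RNA-binding protein, stood between 6.28 and 6.96 on all arrays (adjusted p = 0.194).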

How the data were processed

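The authors deposited log2 expression values, 1 for each probe set on each array, with array medians from 5.64 to 5.71. The submitters' notes on processing name affy. How background was corrected, arrays were normalized and probes were summarised is not given in the sources used here. That the values are log2 was judged from their range, 1.73 to 13.5. RNA was isolated with Trizol and RNeasy, per the labels' protocols.

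Of 12488 probe sets, 66 controls and the 396 with several and 1193 with no symbol were left out. The probe set with the highest mean stood for a gene, which left 8251 genes, with no filter on low values. The members, the gene lists, the comparisons and the alternatives were chosen with earlier results of these data known. Tests used lmFit and eBayes of limma 3.58.1 (R 4.3.3), and p-values were adjusted by Benjamini and Hochberg's method over all 8251 genes, with calls at 0.05. The model of conditions held condition and genotype over 22 arrays (10 residual degrees of freedom). Early (0.5 to 4 h) and late (12 to 48 h) pairs were compared with control pairs on the 11 differences between genotypes (8 residual degrees of freedom).

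Named genes were the members, their 5 most similar genes by r, and from each list up to 4 genes called in the F test by size. Others (Manf, Hsp90b1, Pdia4, Dnajb11, Hsp90aa1, Chordc1, Stip1, Bag3, Ddit3 and Xbp1) were chosen after their values were seen. Alternatives were array weights, a trended robust prior, no genotype term, other probe set, filter and scaling choices, 4 h counted as late, and leaving out pairs or, added after seeing the data, single arrays. The small number of arrays sets the precision.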

Additional observations from a re-analysis of the deposited data

Results flagged for a closer look

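At 4 points the treated liver of one genotype lay outside its own 3 control livers in one direction and that of the other genotype in the opposite direction. These differences at single times were not tested, since each rests on 1 array per genotype. At 16 h Creld2 was below all IFNg-/- controls and above all SOCS1-/-IFNg-/- controls, with a log2 difference of 2.02 between genotypes. The same held for Creld2 at 24 h (0.84) and at 48 h (0.79), and for Hspa5 at 16 h (0.68).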

How the results depend on the processing

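Across 84 results and 41 alternative settings, 2558 of 2801 alternative values kept their direction and their side of the threshold (for counts, stayed within 1.5 times), 184 were weaker, 33 were stronger and 26 changed sign. The number of members called in the F test, 1, was 0 with a trended robust prior, without a genotype term and with median centring, and 0 to 2 on leaving out pairs or arrays. The number called at 4 h against controls, 1, was 0 with array weights and with a trended robust prior, and 0 to 1 on leaving out pairs or arrays. The number called in the late minus control genotype difference, 0, was 1 with array weights. On leaving out pairs or arrays, 0 to 1 members were called at 4 h against PBS and at 24 h against controls; the 1 at 4 h was Hspa1b without the 4 h IFNg-/- array (2.87, adjusted p = 0.00648).

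Differences that changed sign were not past the threshold in any setting where they did. The early minus control genotype difference of Hspa1b (0.05) was -0.76 with array weights and -0.64 with 4 h counted as late, and ran from -0.64 to 0.48 on leaving out pairs. That of Hspa5 (-0.00) was 0.0014 with median centring and 0.023 with 4 h counted as late, and ran from -0.18 to 0.22. On leaving out pairs or arrays, the 12 h difference from PBS ran from -0.14 to 0.52 for Hspa1b and from -0.0091 to 0.37 for Hspa5, the 4 h difference from PBS from -0.55 to 0.29 for Hsph1 and from -0.75 to 0.97 for Creld2, and the PBS minus untreated difference from -1.02 to 0.17 for Hsph1, -0.090 to 0.33 for Hspa5 and -0.76 to 0.20 for Creld2. The late minus control genotype difference of Hspa1b ran from -0.033 to 1.06, the genotype difference of Creld2 from -0.061 to 0.28, and its PBS 12 h minus PBS 4 h difference from -1.52 to 0.19. The cause was not tested.

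No member had another probe set with a single symbol, so the mean of all such probe sets left the members' differences as they were and moved only their adjusted p. The labels carry no replicate numbers, and pairs were matched by treatment and hour alone. With 1 array per genotype and condition, a response of 1 genotype at 1 time could not be tested.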
